A study of Mus musculus with 4 samples.

Results

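The regions described are Gata4 binding peaks that were called in WT and again in DKO mesoderm and lay far from named genes. They were selected on the peak calls themselves: a WT peak was taken when a DKO peak lay within 500 bp of its position and when the deposited WT list named no gene within 5 kb. This gave 2560 of the 20410 WT peaks (12.5%, 95% Wilson interval 12.1 to 13.0), or 34.4% (33.3 to 35.5) of the 7438 WT peaks without a named gene. Over the whole WT list, 45.6% of peaks had a DKO peak within 500 bp, against 52.0% of the 12972 WT peaks with a named gene. These shares follow from the rule and are given as description only.

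Gata4 is a zinc finger transcription factor that binds the DNA words AGATAA and TGATAA and is known for its part in heart, vessel and endoderm formation. Binding sites far from genes often lie in enhancers, which act on promoters over long distances and mostly hold few CpG dinucleotides. In mammalian DNA most cytosines in CpGs outside CpG islands are methylated, and Dnmt3a and Dnmt3b are the enzymes that set this methylation anew during development.

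The values come from 4 libraries, 1 per condition. The Flk1(+) libraries came from wild type (WT, clone J1G4.2 in the labels, written J1G4.211 in the study's methods) and Dnmt3a-/-Dnmt3b-/- (DKO, clone 16G4.3) ES cells, grown on OP9 stroma to day 4.5, given 100 nM dexamethasone (Dex) for 3 h and sorted for Flk1, a receptor on mesoderm progenitors. The other 2 libraries came from undifferentiated WT and DKO ES cells titled Dex-, although the treatment text of their labels repeats the Dex step. All lines derive from J1 cells of 129 background, and each genotype stands for 1 clone. Both Flk1(+) clones carry Gata4GR, a Gata4 fused to the hormone-binding part of the human glucocorticoid receptor under the CAG promoter. By the study's text, the WT and DKO ES controls expressed Gata4GR as well, without Dex. Chromatin was precipitated with a mixture of 3 anti-GATA4 antibodies, which would also take Gata4 made by the cells themselves. Without replicates no value could be set against a spread between libraries, and the intervals given cover counting error within these lists only. Differences between clones and differences between genotypes cannot be told apart.

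Peak height is the authors' smoothed read density at the peak, in their own unit, and how it was scaled between libraries is not stated. Whether a single site is called higher or lower in DKO depends on that scaling. Differences in ratio between sites or classes of peaks do not, provided the scaling is a single factor per library. Whether the libraries differ by such a factor was not tested. The median log2 ratio of the shared near-gene peaks in the same libraries, -0.20, serves as the reference for loci. Of the DKO partners, 2555 had no named gene either and 5 had one. The partner lay a median of 22 bp away (quartiles 10 and 54), 73.6% (71.9 to 75.3) lay within 50 bp, and 33 stood at the same base. The nearest-pair rule let some members share a partner: there were 2357 distinct DKO peaks, and 208 members were not the WT peak nearest to their own partner. Joining members within 500 bp of each other left 2289 distinct regions, with 515 members sharing theirs. At the limit of the rule, members 492, 492 and 496 bp from their partner had WT heights of 5.41, 6.43 and 9.41, and the 3 nearest excluded peaks, the farthest of them at 502 bp, had heights of 7.64, 6.03 and 5.24. The lowest WT heights kept were 5.00, 5.01 and 5.01, just above the threshold of the peak calling.

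The tallest members show what such a region looks like. The bases from 50 bp before to 50 bp after the WT position are given below on the plus strand of mm9, with AGATAA or TGATAA on either strand in capitals. The first 5 are the tallest in WT, the sixth is the tallest with neither word within 250 bp of the position, and the last 3 are, among members with both heights at least 10, the 1 with the highest DKO over WT ratio and the 2 with the lowest.
Lhx1 side, chr11:84406587-84406687: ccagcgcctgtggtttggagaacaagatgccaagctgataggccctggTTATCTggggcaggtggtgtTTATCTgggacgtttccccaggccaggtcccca
Wsb1 side, chr11:79027717-79027817: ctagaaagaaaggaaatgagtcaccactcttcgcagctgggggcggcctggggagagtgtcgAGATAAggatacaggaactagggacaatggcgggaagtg
Gse1 side, chr8:122999577-122999677: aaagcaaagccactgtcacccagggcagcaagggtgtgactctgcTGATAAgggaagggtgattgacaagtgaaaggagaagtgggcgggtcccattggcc
Fzd7 side, chr1:59465905-59466005: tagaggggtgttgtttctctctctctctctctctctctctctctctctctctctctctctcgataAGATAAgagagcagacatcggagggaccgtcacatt
Chia side, chr3:105906194-105906294: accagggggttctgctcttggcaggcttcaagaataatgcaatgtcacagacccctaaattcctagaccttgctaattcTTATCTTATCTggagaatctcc
Mdm1 side, no GATA word, chr10:117502064-117502164: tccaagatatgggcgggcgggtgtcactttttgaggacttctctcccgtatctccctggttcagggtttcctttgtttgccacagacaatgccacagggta
Efnb2 side, higher in DKO, chr8:7472681-7472781: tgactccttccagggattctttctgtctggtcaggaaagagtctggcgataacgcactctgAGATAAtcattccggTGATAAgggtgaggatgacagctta
Gm13060 side, lower in DKO, chr4:133603723-133603823: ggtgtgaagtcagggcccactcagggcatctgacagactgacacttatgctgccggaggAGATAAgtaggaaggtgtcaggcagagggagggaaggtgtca
Rpl28-ps4 side, lower in DKO, chr6:117146322-117146422: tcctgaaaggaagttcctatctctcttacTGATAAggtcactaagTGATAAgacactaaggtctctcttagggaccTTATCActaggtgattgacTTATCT

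The region on the Lhx1 side had the largest WT height of all members, 91.2, with a paired DKO height of 47.0. It lies 67714 bp upstream of the start of Lhx1, a LIM homeobox factor of early mesoderm, in intergenic sequence, and holds 4 GATA words. It also had the largest WT ES height of all members, 24.0, with 7.37 in DKO ES cells. The Wsb1-side region, intergenic and 40406 bp downstream of the start site, stood at 90.4 in WT and at 65.5 in DKO, the largest DKO height among members. The Gse1-side region lies in an intron of Gm20388 and differed more, with 85.7 in WT and 22.9 in DKO. The Fzd7-side region, 73036 bp upstream of a Wnt receptor gene, had 71.0 and 37.4, and the Chia-side region, whose window was repeat-masked over its full length, had 68.5 and 28.3. These 5 regions were thus lower in DKO by log2 ratios from -1.90 to -0.46, a range that takes in the median of the members. They were picked for their WT height, the denominator of the ratio, so the choice itself favours low ratios. The same holds below wherever only the tallest member beside a gene is given.

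Over all members the median height was 11.2 in WT (quartiles 7.70 and 16.8, range 5.00 to 91.2) and 7.45 in DKO (5.98 and 10.4, range 5.00 to 65.5). The median log2 ratio DKO over WT was -0.54, with 2031 members lower and 529 higher in DKO as deposited. The 6745 shared peaks with a named gene had a median of -0.20, a value that 1775 members (69.3%) stood below, so that gene-free peaks stood 0.34 lower on the log2 scale (difference -0.34). The ES heights at the same places went the same way: the median DKO over WT log2 ratio was -0.81 at members and -0.40 at near-gene peaks. The authors' enrichment, which divides each height by the ES height of the same genotype, gave 5.51 in WT and 5.92 in DKO, and its median log2 ratio was 0.05 at members and 0.10 at near-gene peaks. The lower DKO height of members was therefore not seen in the enrichment. In it, ES heights under 1 count as 1 (12.2% of members in WT and 41.7% in DKO). Both peak calls also asked for an enrichment of at least 3, and the lowest among members was 3.00 in WT and 3.00 in DKO. Near-equal enrichments, and ES ratios that go the way of the height ratios, thus follow in part from the rule. The study's methods give more mapped reads for the DKO than for the WT Flk1(+) library. Whether read depth or the scaling of the libraries has a part in the height ratios was not tested.

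Tall peaks in WT tended to be tall in DKO. Across members, log2 heights had a Pearson correlation of 0.53 and a Spearman correlation of 0.45 (over the members, sites in the same libraries), and 127 of the 256 members tallest in WT were also among the 256 tallest in DKO. By the authors' rank, 28.4% of members were in the top 10% of the WT list and 26.6% in the top 10% of the DKO list. The tallest members in DKO after the Wsb1-side and Lhx1-side regions were a Smtnl2-side region (41.0 in WT, 46.5 in DKO) and the Mdm1-side region without a GATA word (46.0 in WT, 45.7 in DKO). A small WT peak of height 5.69 takes the same Mdm1-side DKO peak as its partner, 418 bp away, and so has a ratio of 3.01 that describes the pairing rather than its own height. Of the 50 members over 2-fold higher in DKO, 25 were such peaks whose partner had a nearer WT peak.

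**Figure D1:**
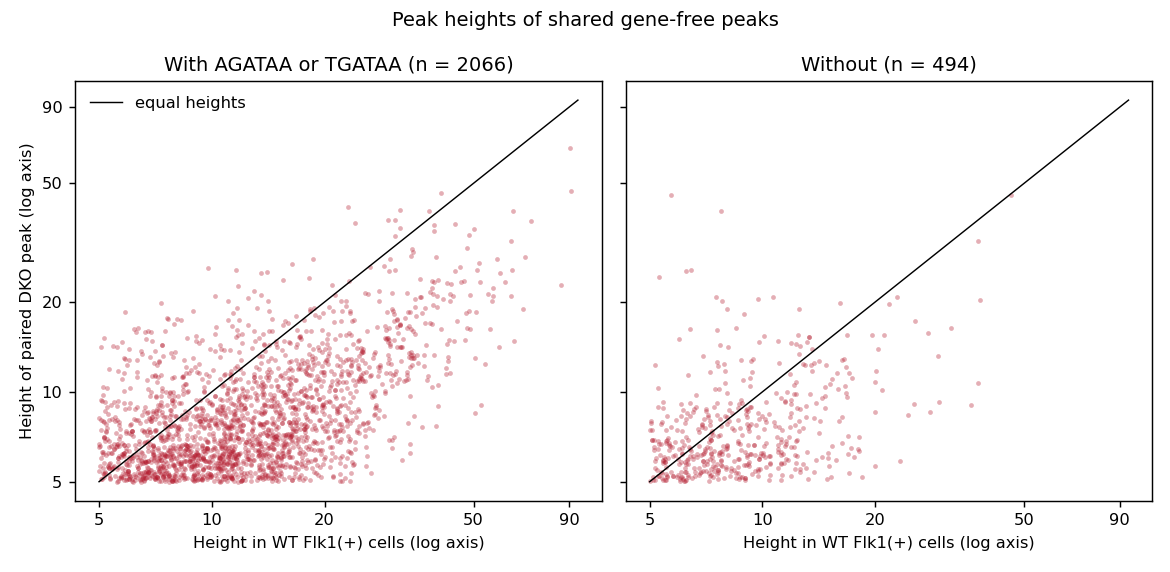
Each point is 1 shared gene-free peak, with its height in the WT Flk1(+) library on the horizontal and the height of its paired DKO peak on the vertical log axis, for the 2066 members with AGATAA or TGATAA and the 494 without. Most points lie under the line of equal heights, and the members without the word reach 46.0 in WT against 91.2 for those with it.

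Among members with both heights at least 10, numbering 554, the highest ratio was 1.14, at the Efnb2-side region of chromosome 8 printed above. Its height was 11.6 in WT and 25.6 in DKO, it holds 4 GATA words, and the start of Efnb2, an ephrin ligand of vessels, is 1166632 bp away. The next were beside Tnfaip2 (10.2 and 20.9), Fbxw7 (10.7 and 20.9, in an intron of Arfip1), St6gal1 (11.8 and 22.6) and Gm10941 (13.6 and 25.1). At the other end, the Gm13060-side region had 63.9 in WT and 14.8 in DKO, a log2 ratio of -2.11, and the Rpl28-ps4-side region had 53.6 and 12.4, also -2.11. Regions beside Plxnc1 (58.4 and 14.2) and Chga (50.6 and 13.0) followed. The 5 lowest-ratio regions each held 1 to 4 GATA words and at most 8 CpGs. These were picked for their ratios, which carry no test.

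Of the factor words searched, the GATA words differed most from the side windows in percentage points. AGATAA or TGATAA, searched on both strands, stood within 250 bp of the position in 2066 of the members (80.7%, 79.1 to 82.2), against 41.6% of 5120 windows 2 kb to either side, a ratio of 1.94 and a difference of 39.1 percentage points (37.0 to 41.1). By ratio alone the rarer T-box word (2.33) and the KLF and SP words (2.11), described further on, stood higher. The share was 42.2% at shared near-gene peaks (difference 38.5 percentage points, 95% Newcombe interval 36.5 to 40.4), 77.8% at the 4878 gene-free peaks called in WT only (2.95, 1.00 to 4.85) and 50.1% at the 2606 called in DKO only (30.6, 28.1 to 33.1). The WT-only peaks were lower (median WT height 6.79, upper quartile 8.73) than members (median 11.2). Members with WT heights of 5.00 to 7.23 and of 7.23 to 9.71 held a word in 67.4% and 71.9%, below the WT-only share. The excess of members over WT-only peaks is therefore not at like height. There were 494 members with no word, 787 with 1, 750 with 2, 347 with 3 and 182 with 4 or more. Of the 494, 170 held the looser AGATAG or TGATAG, which left 324 with neither form. The most words, 7, stood in a Trps1-side window (height 22.2 in WT, 5.01 in DKO) and in an Epha7-side window (6.75 and 6.52).

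The words were gathered at the peak position. Of 4114 matches, 46.1% (44.6 to 47.6) lay in the central 100 bp, where even placement gives 20.2% and the side windows gave 19.9%. The central share was 46.2% at near-gene shared peaks and 46.4% at WT-only gene-free peaks, with differences whose intervals held 0 (-2.14 to 1.96 and -2.20 to 1.64 percentage points), and 41.7% at DKO-only gene-free peaks (4.37 higher in members, 1.81 to 6.91). The nearest match was a median of 31.5 bp from the WT position and 31.5 bp from the DKO position, the DKO position being farther in 1021 members and nearer in 996. Because members were chosen for a DKO position within 500 bp of the WT position, near-equal distances follow in part from the rule.

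**Figure D2:**
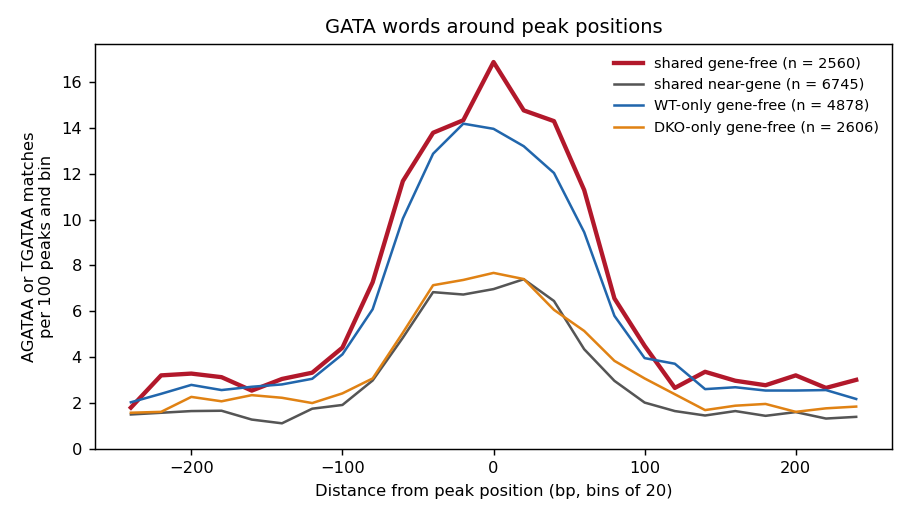
Matches of AGATAA or TGATAA per 100 peaks in bins of 20 bp (vertical) by distance from the peak position (horizontal), for shared gene-free, shared near-gene, WT-only gene-free and DKO-only gene-free peaks. The shared gene-free line is highest at the centre, and all 4 lines are low beyond about 100 bp.

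The bases beside the word differed from those in the side windows. In 1423 members with a match in the central 100 bp, the base after AGATAA or TGATAA was G in 54.5%, against 21.7% of 2899 matches in the side windows, and AGATAA was the form in 66.8% against 55.6%. G followed in 54.9% at near-gene shared peaks, 49.7% at WT-only gene-free peaks (4.83 percentage points below members, 1.58 to 8.06) and 47.8% at DKO-only gene-free peaks (6.73 below, 2.27 to 11.2). The Wsb1, Gse1 and Gm13060 sequences above show this form, with a G straight after the capitals. Within 100 bp of the position, 849 members held 2 or more words. Among their 1134 neighbouring pairs the most frequent arrangement was a spacing of 5 bp on the same strand (39 pairs), in which the words overlap by 1 base as in the Chia-side sequence, followed by 40 bp (14 pairs).

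Words of other factor families were searched in the same windows, and the shares below are for members and then for the side windows. The KLF and SP words GGGCGG or GGGTGTGG stood in 20.9% and 9.90%, the Ets words CCGGAAGT or CAGGAAGT in 9.30% and 4.86%, the Fos and Jun word TGANTCA in 24.5% and 15.3%, the E-box CAGCTG in 31.8% and 21.5%, the Meis word TGACAG in 40.5% and 30.02%, and the Tead word CATTCC in 36.0% and 26.2%. Each of these differences had an interval above 0. The Sox words AACAAT or AACAAA were rarer in members (49.96% and 59.98%), and forkhead words (TGTTTAC or TATTTAC, 15.3% and 14.8%), the Oct word ATGCAAAT (2.85% and 3.18%) and the CTCF core (3.52% and 3.85%) differed by less than their intervals. The members' GC content was 48.5% and that of the side windows 44.7%, and its part in these shares was not tested.

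Against the WT-only gene-free peaks, the word with the clearest opposite direction was the T-box word AGGTGTGA, which T-box factors of mesoderm bind. It stood in 4.18% of members and in 6.42% of WT-only peaks (difference -2.24 percentage points, -3.25 to -1.17), and in 1.80% of side windows. Against the DKO-only gene-free peaks it was the CTCF core, in 3.52% of members and 7.29% of DKO-only peaks (difference -3.78, -5.02 to -2.55). The glucocorticoid receptor word, AGAACA and TGTTCT 3 bases apart, was in 0 windows. By 3 counts of the total this allows a share of up to 0.117%, and the 95% Wilson interval reaches 0.150%, although Gata4GR carries the hormone-binding part of that receptor. This shows only that this exact word is not in the windows.

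Most members were poor in CpGs. The median was 6 within 250 bp of the position (quartiles 4 and 10), against 26 at shared near-gene peaks, 5 at WT-only and 8 at DKO-only gene-free peaks. A count of 20 or more CpGs was found in 223 members (8.71%, 7.68 to 9.87), in 57.8% of near-gene shared peaks, in 2.54% of WT-only gene-free peaks and in 15.2% of DKO-only gene-free peaks. The CpG-rich members differed from the rest: 160 of the 223 had no GATA word, 76.7% held the KLF and SP words against 15.6% of the others, and 74 (33.2%, 27.3 to 39.6) lay within 1 kb of an annotated start of any gene type, against 29 of the 1846 members with under 10 CpGs (1.57%, 1.10 to 2.25). The tallest CpG-rich member, G930045G22Rik side, had 21 CpGs, 2 GATA words and heights of 62.8 in WT and 32.0 in DKO.

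The DKO over WT ratio differed by CpG content. Members with 0 to 2 CpGs had a median log2 ratio of -0.79, those with 3 to 5 had -0.67, those with 6 to 9 had -0.57, those with 10 to 19 had -0.46 and those with 20 or more had -0.17. The near-gene shared peaks ran in parallel, from -0.76 to -0.58, -0.53, -0.29 and -0.08. Within windows of under 10 CpGs the members' median was -0.65 and that of 2039 near-gene peaks -0.58, so that the difference between gene-free and near-gene peaks shrank from -0.34 to -0.066. The ES heights ran the same course, from -1.06 in members with 0 to 2 CpGs to -0.29 in those with 20 or more. The enrichment ratio stayed between -0.09 and 0.16. The enrichment threshold of both calls, described above, limits what these ES and enrichment ratios can show. DNA methylation was not measured in these files, and CpG content is no measure of it. CpG content goes with base composition, whose part in the heights of each library was not tested.

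**Figure D3:**
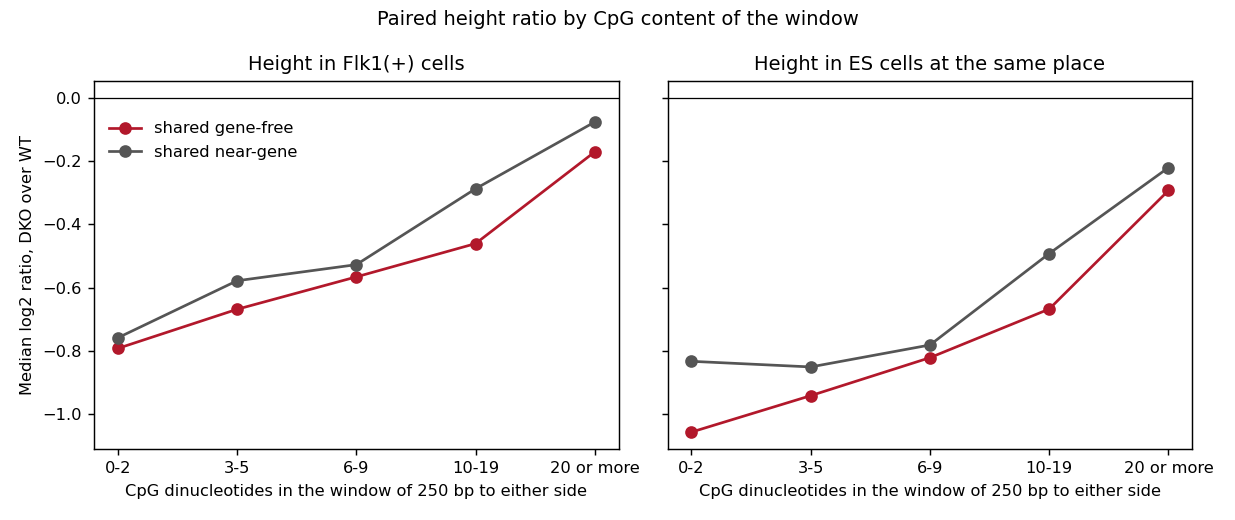
Median log2 ratio of DKO over WT height (vertical) in 5 classes of CpG count within 250 bp of the peak position (horizontal), for the Flk1(+) heights (left) and the ES heights at the same places (right). In both panels the ratio is nearer 0 at higher CpG counts, from -0.79 to -0.17 in shared gene-free peaks on the left and from -1.06 to -0.29 on the right.

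Taller WT peaks held more GATA words. In 5 equal classes of WT height, the share with a word was 67.4%, 71.9%, 79.9%, 89.1% and 95.3%, and by DKO height it ran from 76.6% in the lowest class to 86.3% in the highest. The median ratio was also lower with more words, from -0.24 with none to -0.50, -0.65, -0.77 and -0.93 with 1, 2, 3 and 4 or more. The WT height is the denominator of this ratio and a DKO height of at least 5 was needed to be a member, so that the ratio is lower at greater WT height by construction. Within the middle height class, from 9.71 to 13.1, members with a word (-0.67) and without (-0.67) had the same median ratio. In the second class they had -0.35 and -0.28, in the fourth -0.995 and -0.75 and in the highest -1.17 and -0.93, so that members with a word stood lower there, and in the lowest class they had 0.10 and 0.08. By CpG count, members of the middle class with under 10 CpGs (-0.74, n = 362) and with 20 or more (-0.31, n = 56) stood apart. The medians for these CpG counts were -0.36 and -0.17 in the second class, -1.05 and -0.45 in the fourth, -1.23 and -0.73 in the highest and 0.09 and 0.11 in the lowest, with 17 to 65 CpG-rich members a class.

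A set of members shared sequence with members elsewhere, in some families on different chromosomes and in others on the same chromosome. In 29 members (1.13%, 0.790 to 1.62) the window held an unmasked run of 25 bases found in another member more than 500 bp away, and they formed 7 families. The largest had 11 members on 8 chromosomes, each with a GATA word, with WT heights from 5.15 to 45.1 (median 20.9), a median DKO height of 9.45 and a median log2 ratio of -1.17. The 6 of them that carry the most shared run are given below in one orientation over 81 bases, to show that the word sits in a copied stretch.
chr1:103697187-103697267, plus strand: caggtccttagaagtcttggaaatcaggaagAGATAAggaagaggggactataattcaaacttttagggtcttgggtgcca
chr1:144005481-144005561, minus strand: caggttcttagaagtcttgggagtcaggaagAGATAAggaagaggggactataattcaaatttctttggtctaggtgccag
chr14:58514956-58515036, minus strand: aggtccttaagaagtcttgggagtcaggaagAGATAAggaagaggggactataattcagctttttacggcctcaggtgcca
chr14:97347000-97347080, plus strand: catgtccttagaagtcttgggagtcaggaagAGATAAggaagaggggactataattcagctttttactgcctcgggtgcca
chr7:149468841-149468921, minus strand: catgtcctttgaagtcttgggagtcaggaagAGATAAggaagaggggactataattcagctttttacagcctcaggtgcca
chrX:92881846-92881926, minus strand: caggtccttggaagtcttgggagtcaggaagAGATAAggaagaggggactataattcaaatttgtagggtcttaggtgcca

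In each of these copies the word AGATAA is followed by GG. The first copy, whose nearest start site, Cntnap5b, is 2027808 bp away, is the member farthest from any protein-coding gene, with heights of 8.93 in WT and 5.08 in DKO. The second, 1448160 bp from Cdc73, had 20.9 and 6.23. The third copy had 31.1 in WT and 11.8 in DKO and the copy on chromosome 7 had 44.0 and 20.9, so that copies of nearly the same sequence differed in height. The central run occurs 144 times in the mm9 genome. Beside 11 of the 2560 members, the family's shared runs were found in 41 of 4878 WT-only gene-free, 2 of 2606 DKO-only gene-free and 6 of 6745 near-gene shared peaks. Reads from near-identical copies may not have been placed uniquely, so heights at these sites are uncertain.

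By the GENCODE annotation of mm9, the median distance to the nearest protein-coding start site was 47668 bp (quartiles 19694 and 113260). It was 61686 bp at WT-only and 34283 bp at DKO-only gene-free peaks. Of the members, 74.7% lay over 20 kb, 48.9% (46.9 to 50.8) over 50 kb and 28.1% over 100 kb from such a start, and 64 lay over 500 kb away. The share over 50 kb differed by -7.88 percentage points from WT-only peaks (-10.3 to -5.49) and was 9.23 higher than at DKO-only peaks (6.52 to 11.9). The nearest start lay downstream of the peak for 61.8% (59.9 to 63.7), so these peaks were upstream of their nearest gene. GENCODE places 306 members (11.95%) inside a gene, 37 of them in an exon and 269 in an intron, and 2254 between genes. It also places 3.95% of members within 5 kb of a protein-coding start that the authors' gene names did not show, with a median of 23 CpGs and a GATA word in 39.6%.

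**Figure D4:**
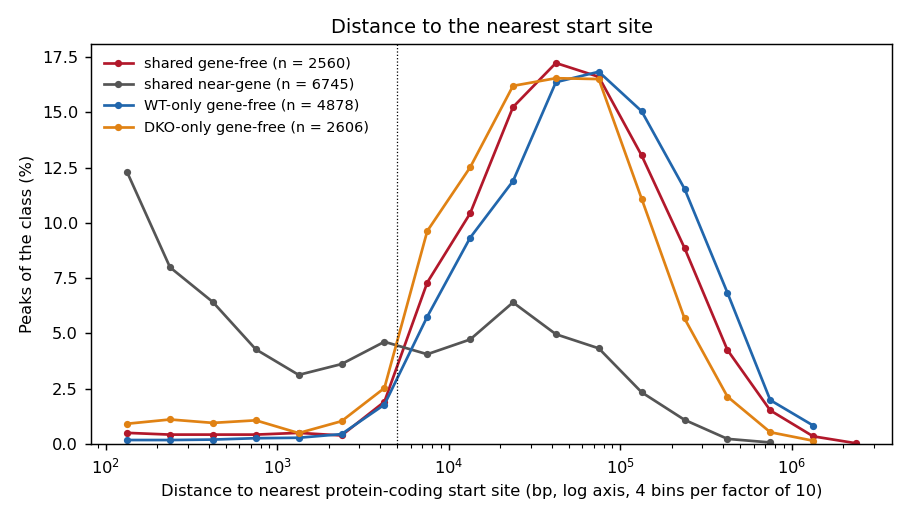
Share of the peaks of each class (vertical, percent) by distance to the nearest protein-coding start site (horizontal, bp on a log axis), with a dotted line at 5 kb. Shared gene-free peaks lie between the DKO-only peaks, which are nearer, and the WT-only peaks, which are farther, with medians of 47668, 34283 and 61686 bp.

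The GATA word share was higher at greater distance, from 39.6% (30.6 to 49.4) within 5 kb and 78.9% at 5 to 20 kb to 89.8% (87.2 to 91.9) at 100 to 500 kb and 93.8% (85.0 to 97.5) beyond. The median CpG count went from 23 to 3 over the same classes. Median WT heights stayed between 9.01 and 11.6, and DKO heights between 6.56 and 7.82.

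Members were spread over the genome at 0.964 per Mb. The densest were chromosomes 8 (243 members, 1.84 per Mb) and 11 (209 members, 1.72 per Mb), and chromosome X had 43 (0.258 per Mb). WT peaks without a named gene were also dense on chromosomes 8 and 11, where 37.6% and 34.2% of them were shared, near the 34.4% of all. Median ES heights at members were 2.18 in WT on chromosome 8 and 1.58 in DKO on chromosome 11, against 1.88 and 1.14 over all members, and the median DKO over WT ES ratio was -0.30 on chromosome 11 against -0.81. The number of copies of these chromosomes in the clones was not tested. Without both chromosomes the difference in ratio between gene-free and near-gene peaks was -0.34.

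Members often lay close together. With gaps of at most 20 kb, 1030 members (40.2%, 38.4 to 42.1) stood in 419 clusters of 2 or more, 422 in 115 clusters of 3 or more, and 19 clusters held at least 5. Of the members, 672 (26.3%, 24.6 to 28.0) stood in clusters that held 2 or more distinct regions. The largest cluster had 8 members in 6 regions over 15668 bp on chromosome 17 beside Pkdcc, a kinase gene of limb and skeleton growth, with WT heights from 5.09 to 13.6. The next had 7 members in 7 regions over 50190 bp on chromosome 14, the first nearest to Bmp4 and the others to Cdkn3, all 7 with a GATA word and all lower in DKO (log2 ratios -1.15 to -0.27). The third, 6 members beside Hmga2 on chromosome 10, had WT heights from 6.23 to 23.1. Clustered members and lone members had similar median heights, 11.2 and 11.3 in WT.

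Of 22225 protein-coding genes, 1583 (7.12%) were nearest by start site to 1 or more members, 518 to 2 or more and 64 to 5 or more. Genes with room around them were nearest more often: the span of a gene, taken as the mean of the gaps to the neighbouring start sites on either side, had a median of 169570 bp for these genes and 47813 bp for all. In the 5 equal classes of span the share nearest to a member was 0.383%, 1.98%, 4.06%, 8.88% and, for spans of at least 137579 bp, 20.2%. Nearest genes are a matter of position only and say nothing of regulation.

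The genes nearest to the most members were Cdkn3 (11 members), Dlc1, 3930402G23Rik and Pkdcc (10 each), Foxc2 and Kdr (9 each) and Rbm20 and Bmp2 (8 each, as had 5 other genes). Kdr encodes Flk1, the receptor by which the cells were sorted. Its 9 members in 7 regions each held a GATA word and lay from 34655 to 148116 bp from the start site. The tallest in WT, 34655 bp upstream, had a height of 20.6 in WT and 5.61 in DKO. In contrast the site 88978 bp upstream had 8.06 in WT and 17.5 in DKO, and the 9 log2 ratios ran from -1.88 to 1.20, or to 1.12 over the 7 members that were the WT peak nearest to their partner. The ratio thus differed widely within the locus, 5 of the 9 standing below the near-gene median of -0.20.

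Bmp2 encodes a ligand of the BMP family that patterns mesoderm and heart. All 8 of its members, in 8 regions from 178527 bp upstream to 35846 bp downstream of the start, held a GATA word and had log2 ratios from -1.87 to -0.89, below the near-gene median. In genomic order the WT heights were 23.7, 55.2, 18.9, 17.7, 29.5, 22.3, 16.8 and 15.0. The paired DKO heights were 8.07, 16.2, 7.55, 7.75, 12.5, 6.11, 7.92 and 8.12. At each of the 8 sites the DKO height stood below the paired WT height as deposited, in 1 library of each genotype. The median log2 ratio was -1.28, against -0.54 over all members, and the windows held 1 to 5 CpGs. All 8 WT heights fell in the fourth and highest of the 5 classes of WT height. There, members with under 10 CpGs had medians of -1.05 and -1.23. The locus median lay nearer to these than to that of all members.

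Foxc2, a forkhead gene of vessel and mesoderm formation, had other values. Its 9 members, in 6 regions, lay from 54123 to 200372 bp downstream of the start, 5 with a GATA word, and the median log2 ratio was 0.10. Of these, 2 took the partner of a nearer WT peak, 1 of them with the highest ratio at the locus, 2.38, and over the other 7 the median was 0.09, with 2 below the near-gene median. A site at 84870 bp had 30.8 in WT and 37.6 in DKO with the positions at the same base, and a site at 200011 bp had 38.0 and 40.5 with 19 CpGs. The Lhx1 members, 8 in 5 regions, were led by the region printed above, and 1 at 79310 bp upstream had 34.98 and 20.4.

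Among genes named for their roles, cardiac regulators were nearest to a member in 9 of 15, read against 7.12% of all genes and 20.2% of those with the widest spans, the median span of the list being 248580 bp. Vessel and blood regulators were nearest in 10 of 20, mesoderm patterning genes in 9 of 19, GATA and Zfpm genes in 3 of 8, endoderm regulators in 5 of 18 and pluripotency genes in 2 of 13 with a position. In that order their median spans were 101020, 186020, 74213, 103000 and 164160 bp, against 47813 bp for all genes. Of the genes that responded to Gata4 in the study, lists the study chose on its own expression data, 5 of 53 in the first group and 7 of 39 in the second were nearest to a member. Their median spans were 50093 and 116820 bp. The lists share some genes, and no list was tested.

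**Figure D5:**
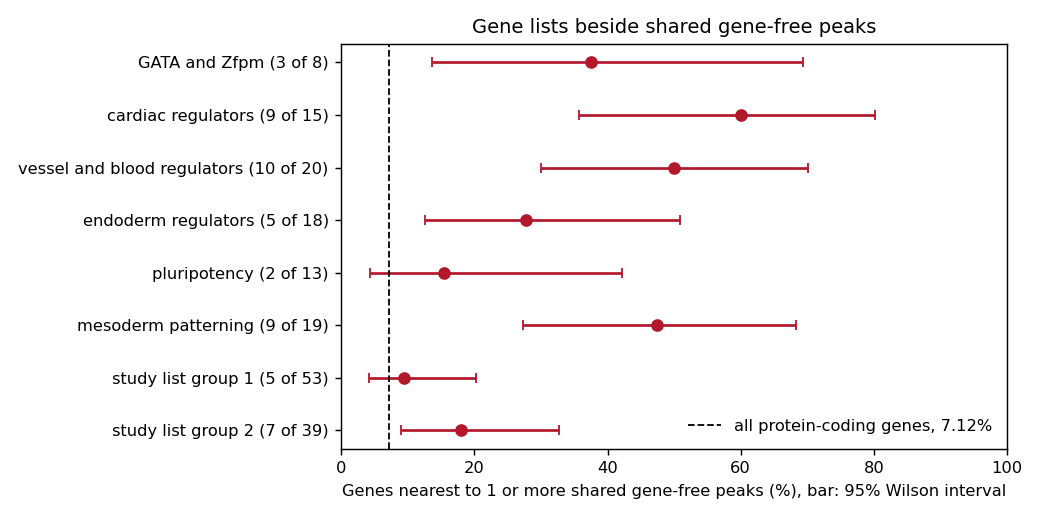
Share of each gene list nearest by start site to 1 or more shared gene-free peaks (points, percent, with 95% Wilson intervals as bars), with the share of all protein-coding genes, 7.12%, as a dashed line. Cardiac regulators (9 of 15) and vessel and blood regulators (10 of 20) stand farthest to the right. The first group of the study's response genes (5 of 53, 9.43%) lies a little above the line, with an interval that crosses it. The line is not matched to the spans of the listed genes.

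Sites beside cardiac and mesoderm genes are given here as 61 bases around the WT position on the plus strand of mm9, with the GATA words in capitals, because their heights are described next.
beside Isl1, chr13:117299486-117299546: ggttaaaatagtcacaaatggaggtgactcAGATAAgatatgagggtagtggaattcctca
beside Lbh, chr17:73355695-73355755: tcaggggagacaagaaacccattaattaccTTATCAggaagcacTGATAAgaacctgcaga
beside Eomes, chr9:118293926-118293986: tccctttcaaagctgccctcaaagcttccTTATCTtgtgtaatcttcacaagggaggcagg
beside Tbx20, chr9:24652861-24652921: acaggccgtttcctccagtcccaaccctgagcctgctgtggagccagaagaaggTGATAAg
beside Myocd, chr11:65174131-65174191: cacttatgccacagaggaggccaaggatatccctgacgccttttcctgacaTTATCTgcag
beside Foxc1, chr13:31889827-31889887: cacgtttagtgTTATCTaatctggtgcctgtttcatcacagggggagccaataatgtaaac

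Isl1, a homeobox gene of the second heart field, had 3 members, at 49980 bp downstream and 32773 and 199620 bp upstream of its start. Their WT heights were 15.9, 24.5 and 33.8 and their DKO heights 6.19, 8.79 and 12.1, with log2 ratios between -1.48 and -1.37. Lbh, a heart and limb cofactor gene, had 3 members, of which the tallest, with 3 GATA words in its window, had 42.7 in WT and 12.7 in DKO while the one nearest to the gene had 10.5 and 14.4. Tbx20, a cardiac T-box gene, had 7 members with WT heights from 5.28 to 29.8 and DKO heights from 5.56 to 14.9. Of its log2 ratios 6 of 7 were below the near-gene median, or 5 of 6 without a member that took the partner of a nearer peak. Myocd, the myocardin coactivator of cardiac and smooth muscle genes, had 7 members in a few close groups, from 6.52 to 19.7 in WT and from 7.67 to 12.7 in DKO, with a median log2 ratio of 0.01. Of the 7, 3 took the partner of a nearer WT peak, and the median over the other 4 was -0.24, with a range from -1.36 to 0.37. The ratios therefore varied between and within these loci.

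Tbx5, a T-box gene of heart and forelimb, had 3 members, with WT heights of 10.1, 16.3 and 10.2 and DKO heights of 5.70, 12.7 and 7.86. Mef2c, a MADS-box factor of heart and muscle, had 3, with 22.3, 6.17 and 23.6 in WT and 18.6, 5.01 and 12.2 in DKO. Smarcd3, which encodes a cardiac subunit of the BAF complex, had 1 member 7498 bp upstream with 51.7 and 27.0. Its ES heights were 15.0 in WT and 2.54 in DKO, the second largest WT ES height of all members. Nkx2-5 had 1, 9398 bp upstream, with 21.5 and 13.2.

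Of the vessel and blood genes, Runx1 had 5 members between 57892 and 354350 bp upstream, the tallest with 5 GATA words and heights of 22.2 in WT and 7.64 in DKO. Its member 57892 bp upstream went the other way, with 7.86 in WT and 9.96 in DKO. Ets1 also had 5 members, the tallest with 16.2 and 7.04, and Cdh5, the vascular cadherin, had 1 with 17.7 and 9.74. The remaining listed vessel and blood genes had 1 member each. Sox18 had 6.77 in WT and 16.0 in DKO, and Sox7 had 9.23 and 11.5. Erg had 14.8 and 14.8, Tal1 6.04 and 6.02, Fli1 13.6 and 12.5, and Notch1 7.01 and 6.45. Among the mesoderm patterning genes, Foxc1 had 3 members within 13172 bp of its start, with 14.1, 22.0 and 22.9 in WT and 8.99, 8.99 and 6.01 in DKO, the first 2 sharing a DKO partner. Eomes, a T-box factor of mesoderm and endoderm entry that was listed with the endoderm regulators, had 1 member 93374 bp upstream with 42.5 and 14.5. Of the mesoderm patterning genes again, Mesp1, a factor of early cardiac mesoderm, had 2, the taller with 15.8 and 7.04. Foxf1a had 3, the tallest with 36 CpGs and heights of 19.4 and 5.60. Meis1, a homeobox cofactor gene, had 2, the taller with 13.6 and 6.57.

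Of the GATA genes, Gata6 had 1 member 116490 bp upstream with 48.1 in WT and 16.3 in DKO, and Gata2 had 1 with 50 CpGs and no GATA word, 4067 bp upstream, with 21.1 and 15.6. Gata5 had 1, 20385 bp upstream, with 11.3 and 7.97. Sox2, a pluripotency factor, had 1 member 386678 bp away with 24.4 and 10.9, and Tbx3 had 3 whose WT heights ran from 13.7 to 15.0 and whose DKO heights ran from 5.28 to 6.04. Prdm1 had 2, the taller with 17.8 and 11.9. Among the response genes of the study, Ano4 had 1 with 36.0 and 20.9, Sh2d4a had 1 with 20.5 and 12.4, and Pmaip1 had 2, the taller with 15.3 and 6.01. Others of these genes had a greater height in DKO, each at 1 member. They were Tom1l1 with 6.47 in WT and 13.7 in DKO, Foxa2 with 5.40 and 8.11, and Ccdc19 with 14.4 and 17.6. Tom1l1 and Foxa2 fell in the lowest class of WT height, whose median log2 ratio was 0.09. The DKO partner of the Foxa2 member lay 183 bp away. Lower in DKO, also at 1 member each, were Clic5 (9.46 and 5.50), 6030498E09Rik (11.5 and 6.42) and Tfpi2 (10.3 and 6.35).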

How the data were processed

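Gata4 ChIP-seq peak lists of WT and DKO Flk1(+) cells were analysed, which the authors called with DNAnexus tools on mm9, using the matching ES library as background. The submitters' processing notes name CASAVA 1.8.1 and cutadapt. The aligner, duplicate handling and library scaling are not given in the sources used here. The deposited peak heights are a signal without a stated unit, the deposited enrichment is a ratio of the 2 heights, the deposited rank is the authors' score, and the deposited −log10 of the q-value was read but not reported. The files hold no read depth, and the mapped reads that the methods state for the Flk1(+) libraries, more in DKO than in WT, were not used, so intervals cover counting over peaks only. The genotype of a list was taken from its number of peaks, which equals the number the methods give for that genotype, because no column names a library.

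The base windows in the lists, which reach 250 bp to either side of the position, were checked against mm9, and all of them matched. Words were searched on both strands. Start sites came from GENCODE for mm9. Shares carry 95% Wilson and differences 95% Newcombe intervals, medians were compared without a test, and the steps were tested on simulated data. Members and gene lists were chosen with earlier results of these data known. Regions and genes were named by a rule. It took the 5 tallest in each library and the 5 highest and 5 lowest ratios with both heights at least 10. It took the tallest without a GATA word and with 20 or more CpGs, the 3 with the most words, the 3 farthest and the 3 with the largest ES height. It also took the 3 largest clusters, the 8 genes nearest to the most members, and listed genes with 2 or more members or a WT height of at least 15. The last region of the lowest-ratio, most-words, farthest and largest-ES sets is not named in the text. The shared-sequence families, the sites described locus by locus and a few listed genes were added after the data were seen. One listed gene that meets the rule is not reported here. Of 94 study genes, 92 had a position. The alternatives tried were other pair distances, gene definitions, motif forms, windows, height minimums and cluster gaps. Tables were handled in pandas 2.3.3 and NumPy 2.4.6 under Python 3.11.15, sequences were read with samtools 1.23.1 and pysam 0.24.0, quantiles came from SciPy 1.17.1 and plots from Matplotlib 3.10.9.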

Additional observations from a re-analysis of the deposited data

How the results depend on the processing

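No paired analysis was possible because each condition has 1 library and the labels carry no replicate numbers. The number of members stayed between 2066 and 2410 under 4 other definitions and was 554 with both heights at least 10. The share with AGATAA or TGATAA was 87.3% with the looser words, 71.6% within 100 bp of the position, 84.6% with positions within 100 bp, 83.0% without an annotated gene body within 5 kb and 90.4% with both heights at least 10. Chosen after seeing the data, 1 member per region gave 82.4%. In the central 100 bp lay 41.6% of matches with the looser words and 48.2% with positions within 100 bp. The median CpG count was 7.48 when counted within 100 bp and scaled to the full window. The difference in log2 ratio between gene-free and near-gene peaks kept its sign and was -0.42 with both heights at least 10 and, chosen after seeing the data, -0.066 in windows of under 10 CpGs. The median distance to a start site was 28584 bp over all annotated genes and 54505 bp without an annotated gene body within 5 kb. The share in clusters was 34.4% with gaps of 10 kb and 50.1% with gaps of 50 kb. Chosen after seeing the data, the share of members in clusters of 2 or more distinct regions was 26.3%. The other 15 alternative values stayed within the interval of the reported value or, for counts and the share of listed genes, near it. The cause of these shifts was not tested, apart from the smaller sets that the alternatives make by construction. One library per condition, an unstated scaling of heights and the height and enrichment thresholds of both calls limit every comparison of heights.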

Other observations

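Repeats covered the central base of 416 members (16.3%, 95% Wilson interval 14.9 to 17.7), by the lower-case masking in the deposited windows. The share was 6.35% at shared near-gene peaks, 22.0% at WT-only gene-free peaks (members minus these -5.71 percentage points, 95% Newcombe interval -7.52 to -3.84) and 23.7% at DKO-only gene-free peaks (-7.43, -9.59 to -5.25). Members thus had masked centres less often than either set of unshared gene-free peaks. A second family of shared sequence had 6 members on 6 chromosomes, each with a GATA word, with WT heights from 6.84 to 12.3 and a median DKO height of 6.60. Another had 4 members on 4 chromosomes, with WT heights from 5.83 to 16.5.

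The 494 members without a GATA word had a median of 11 CpGs, a median WT height of 8.41 and a median DKO height of 6.74, against 6 CpGs, 12.02 and 7.63 for the 2066 with one. Their partners stood farther from the WT position, a median of 38 bp against 20 bp, and 43.5% of them held the KLF and SP words against 15.5%. The E-box CAGCTG was as frequent in both, at 32.0% and 31.8%, as was the Fos and Jun word, at 25.3% and 24.3%.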
